A study of Mus musculus with 22 samples.

Results

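Age was compared in mice fed ad libitum (AL): the hippocampal CA1 region of 6 AL mice at 15 months was set against that of 5 AL mice at 5 months. The mice were chosen by their sample labels for diet and age, and they account for 11 of the 22 libraries in the series, 1 library per mouse. All were wild-type female F1 mice of a Swiss Webster by DBA/C57BL6 cross that ate the control diet without restriction from young adulthood on. The other 11 libraries, 5 at 5 months and 6 at 15 months, came from mice of the same cross on calorie restriction (CR). They enter in the choice of genes tested, the shared error estimate, the alternative fits and a second comparison of the same ages. Mice were perfused before dissection, killed in mid-afternoon, and CA1 was cut by hand from tissue slabs. The labels name no litter, birth cohort or sequencing run for a library, so age cannot be told apart from any of these that followed it. The p-values set a difference between group means against the spread between mice within groups, estimated from all 22 libraries.

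CA1 is the output field of the hippocampal circuit. Its pyramidal neurons receive Schaffer collateral input from CA3, are needed for spatial and contextual memory, and carry a calcium-dependent plasticity machinery of AMPA and NMDA receptors, calmodulin-dependent kinases and protein kinase C. CA1 lies beside the dentate gyrus, the subiculum and the overlying neocortex, and it faces the ventricle with its ependyma and choroid plexus, so a dissected piece can hold RNA of several cell types. In tissue RNA, fewer cells of a type and less RNA per cell cannot be told apart.

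Expression is given as FPKM, the number of sequenced fragments of a gene scaled to transcript length and to the size of the library. Differences are log2 fold changes of 15 over 5 months on the scale log2(FPKM + 0.1), which understates the change of low genes, and they are followed by their standard error (SE). Genes were called differentially expressed at a Benjamini-Hochberg adjusted p under 0.05 from limma. Median FPKM lay between 2.57 and 2.68 in the younger and between 2.72 and 3.10 in the older AL mice, with 18299 to 19175 genes above 0. FPKM steps of single fragments put the relative depth of 9 AL libraries between 0.627 and 1.39 times that of AL 5 months replicate 1. The AL libraries numbered 0 at both ages did not share these steps, so results were also computed without the 4 libraries numbered 0, 1 in each diet and age. The absolute depth is unknown.

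Of 16978 genes tested, 3502 (20.6%) were differentially expressed, 1809 (10.7%) upregulated and 1693 (9.97%) downregulated at 15 months. The balance of directions moved with scaling: 1441 genes were upregulated and 2286 downregulated after every library had been set to 1 median, and 1509 and 1845 after quantile normalization. Changes of at least 1.5-fold were found in 981 upregulated and 723 downregulated genes, and changes of at least 4-fold in 87 and 73. The median absolute log2 fold change of called genes was 0.57, and the median change of all genes tested was -0.0018. In 2384 genes (14.0%), all libraries at 15 months lay on 1 side of all libraries at 5 months, above them in 7.27% and below them in 6.77% of genes. Counts of called members in the gene lists are to be read against these shares, and a share near them says nothing particular about a list. Without the 4 libraries numbered 0, 2702 genes were called, and the count without any 1 AL library ranged from 2382 (without AL 5 months replicate 2) to 3438.

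Among genes with a mean of at least 1 FPKM in either AL group and no overlap between the ages, those that fell most were Lefty1, Ttr, Spink8, Oxt, Dsp, Lct, Fibcd1, Drd5, 1700024G13Rik, Calml4, Lrrc10b and Krt15, with log2 fold changes from -4.27 to -2.94. They include markers of CA1 pyramidal cells (Lefty1, Spink8, Fibcd1), markers of dentate granule cells (Dsp and Lct), the secreted transthyretin of the choroid plexus (Ttr), the neurohormone oxytocin (Oxt) and the D5 dopamine receptor (Drd5). FPKM of Drd5 was 10.4, 10.2, 13.9, 9.91 and 9.94 at 5 months and ranged from 0.443 to 2.85, with a median of 0.9702, at 15 months, without overlap. No library at 15 months reached the lowest at 5 months. The log2 fold change of Drd5 was -3.27 (SE 0.52, adjusted p = 0.000501). Lrrc10b stood at 32.9, 36.3, 32.1, 34.1 and 27.6 FPKM in the mice at 5 months, and in those at 15 months it ran from 1.97 over a median of 5.22 to 6.62 FPKM, without overlap. The values for Lrrc10b, a leucine-rich repeat protein gene, were the most uniform of the 12 at 5 months, and the groups were far apart (log2 fold change -2.94, SE 0.55, adjusted p = 0.00128).

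By the same rule, the genes that rose most included Alox12e, Igfn1, Tnnt2, Defb1, Rasgef1c, Dkkl1, Mab21l1, Cbln1, Samd3, Mei1 and Col24a1, with log2 fold changes from 4.31 to 2.61. Alox12e encodes an epidermal-type lipoxygenase, Tnnt2 the cardiac troponin T, and Cbln1 a synapse-organizing protein secreted by neurons. For Tnnt2 the 5 libraries at 5 months gave 1.27, 0.674, 0.465, 0.524 and 0.795 FPKM and the 6 at 15 months gave 6.38 to 17.7 FPKM with a median of 9.64, without overlap. The highest value of Tnnt2 at 5 months was below the lowest at 15 months (log2 fold change 3.70, SE 0.50, adjusted p = 0.000176). Mei1 had 0.207, 0.132, 0.07898, 0.178 and 0.0459 FPKM in the 5 libraries at 5 months, and its lowest, median and highest values at 15 months were 0.673, 1.47 and 1.74 FPKM, without overlap. Mei1, a gene of meiotic recombination, was low at both ages but had the narrowest error of these genes (log2 fold change 2.63, SE 0.26, adjusted p = 1.5e-05). Several of these genes were near the detection limit at 5 months, so their fold changes depend on the added 0.1. Mei1, Alox12e and Tnnt2 were among the genes that met the level of 1 FPKM only through the mice at 15 months. Among the genes that fell, Krt15 and 1700024G13Rik were below that level in every library at 15 months and met it only through the mice at 5 months. For the leading genes of both directions, the absence of overlap was a condition of the choice and not a finding. The same holds where these genes return in the lists below. FPKM of Alox12e was 0.00932, 0.00986, 0, 0.0319 and 0.0821 at 5 months and ranged from 0.211 to 6.56, with a median of 3.13, at 15 months, without overlap.

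**Figure D1:**
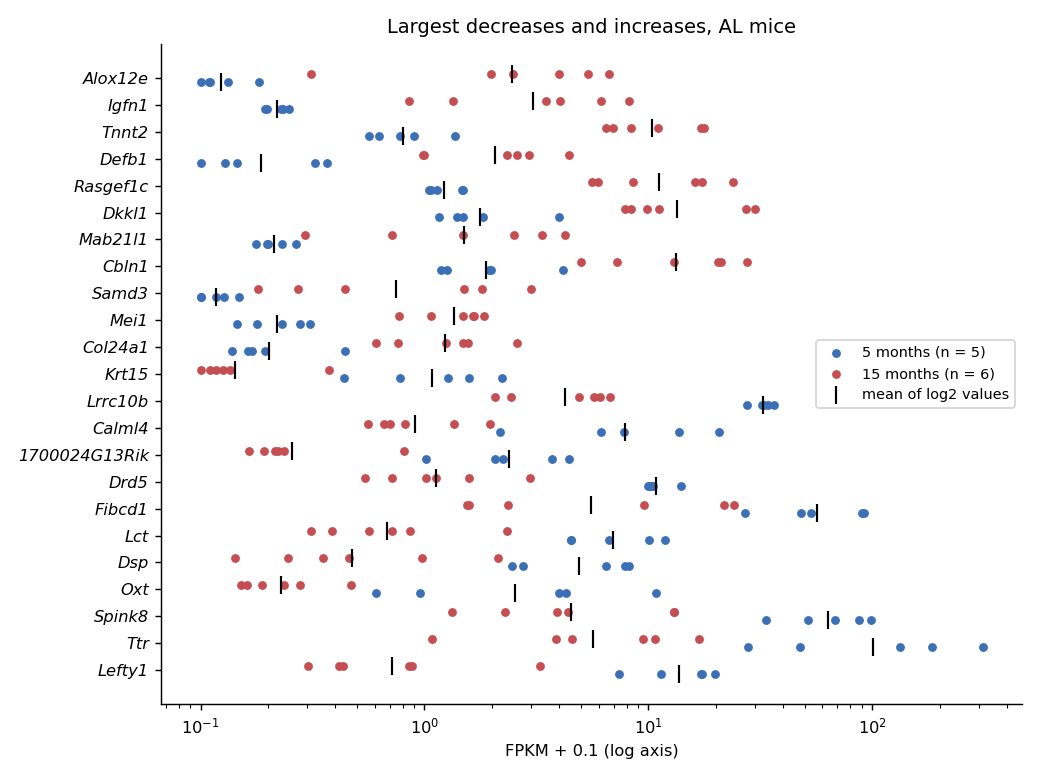
FPKM + 0.1 (log axis) of genes with the largest changes between AL mice at 5 months (5 points per gene) and 15 months (6 points); ticks mark the mean of the log2 values. By the rule that chose them, no library of one age overlaps the other; Krt15 and the genes under it lie to the left at 15 months and those above it to the right.

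Most markers of CA1 pyramidal neurons fell, while 8 of 17 markers of neocortex and subiculum rose. Of 7 CA1 markers, 5 were downregulated and 0 upregulated, with a median log2 fold change of -2.30 beside -0.0018 for all genes tested. The 5 were 71.4% of the list, beside 9.97% of all genes called lower. Spink8 stood at 33.4, 51.8, 99.04, 68.3 and 87.4 FPKM in the mice at 5 months, and in those at 15 months it ran from 1.22 over a median of 4.04 to 12.9 FPKM, without overlap. Spink8, a serine protease inhibitor gene that is restricted to CA1 within the hippocampus, fell by 3.81 on the log2 scale (SE 0.65, adjusted p = 0.000749). For Lefty1 the 5 libraries at 5 months gave 7.296, 11.3, 19.7, 17.1 and 17.2 FPKM and the 6 at 15 months gave 0.203 to 3.17 FPKM with a median of 0.543, without overlap. Lefty1, an antagonist of Nodal signaling, had the largest change of the list (log2 fold change -4.27, SE 0.74, adjusted p = 0.000833). Fibcd1 (log2 fold change -3.35, adjusted p = 0.00329), the sulfotransferase gene Ndst4 (log2 fold change -2.30, adjusted p = 0.00387) and the POU-domain factor Pou3f1 (log2 fold change -2.02, adjusted p = 0.0133) followed the same direction. The remaining pair did not pass the test: Wfs1, which encodes wolframin of the endoplasmic reticulum, had 56.5 ± 22.3 FPKM at 5 months and 83.4 ± 15.2 at 15 months (SD; log2 fold change 0.63, adjusted p = 0.156), and Mpped1 had 118 ± 33.9 and 103 ± 15.2 (adjusted p = 0.655). The summed FPKM of the 7 markers lay between 224.8 and 497 in the younger and between 173 and 271 in the older mice, and every marker was above 0 in every AL library. All 5 calls were kept in each of the 11 fits that left out 1 AL library.

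Markers of other hippocampal fields were downregulated or not called. The shares called lower were 40% in CA2, 50% in CA3 and 28.6% in the dentate gyrus, beside 9.97% of all genes. Without 1 AL library, 1 or 2 markers were called in CA2 and 1 or 2 in the dentate gyrus. In CA2, 2 of 5 markers fell: Rgs14, which limits plasticity in CA2 neurons, (log2 fold change -1.65, adjusted p = 0.000453) and Amigo2, an adhesion gene (log2 fold change -1.28, adjusted p = 0.02496). The call of Amigo2 was kept in 8 of 11 fits without 1 AL library, with adjusted p up to 0.0585. Map3k15, Cacng5 and Ntf3 had log2 fold changes of -0.36, -0.28 and -0.44. In CA3, 3 of 6 markers fell, namely Iyd (log2 fold change -2.21, adjusted p = 0.0127), the scaffold gene Homer3 (log2 fold change -1.94, adjusted p = 0.00501) and the cadherin Cdh24 (log2 fold change -1.49, adjusted p = 0.003796), whereas Bok, Grik4 and Pvrl3 had changes of -0.12, -0.50 and -0.40. Iyd had 3.42, 6.63, 0.887, 1.36 and 0.948 FPKM in the 5 libraries at 5 months, and its lowest, median and highest values at 15 months were 0.216, 0.361 and 0.4998 FPKM, without overlap. At 5 months, Iyd was highest in the libraries numbered 0 and 1. In the dentate gyrus, 2 of 7 markers fell: the desmosomal gene Dsp (log2 fold change -3.36, adjusted p = 0.0246) and the lactase gene Lct (log2 fold change -3.36, adjusted p = 0.00903). Dsp stayed called in 8 of the 11 fits without 1 AL library (highest adjusted p = 0.0571). The granule cell factor Prox1 had 11.4 ± 5.32 FPKM at 5 months and 5.27 ± 3.14 at 15 months (SD; adjusted p = 0.181), and C1ql2, Tdo2, Plk5 and Trpc6 had log2 fold changes of -0.61, -1.68, 0.43 and 0.11. FPKM of Dsp was 6.37, 7.77, 2.37, 8.098 and 2.65 at 5 months and ranged from 0.0422 to 2.03, with a median of 0.306, at 15 months, without overlap.

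Among 17 markers of neocortex and subiculum, 8 rose and 1 fell, with a median log2 fold change of 1.12. The shares were 47.06% up and 5.88% down, beside 10.7% and 9.97% of all genes. Cux2 stood at 4.72, 4.699, 4.79, 4.096 and 5.11 FPKM in the mice at 5 months, and in those at 15 months it ran from 10.05 over a median of 23.7 to 25.9 FPKM, without overlap. Cux2, a homeobox gene of upper-layer cortical neurons, rose in every library (log2 fold change 2.11, SE 0.28, adjusted p = 0.000173). Ctgf (log2 fold change 2.05, adjusted p = 0.00642) and the complexin Cplx3 (log2 fold change 1.99, adjusted p = 0.00432), both known from deep-layer and subplate neurons, also rose without overlap. Etv1, a layer 5 marker in cortex, was the 1 member that fell (log2 fold change -0.68, adjusted p = 0.0434). Etv1 was called in 2 of the 11 fits that each left out 1 AL library (adjusted p up to 0.109). The summed FPKM of the list was between 151 and 199 at 5 months and between 225.5 and 414 at 15 months. In the striatal list, 3 of 8 markers rose, among them the receptor genes Drd1a (log2 fold change 1.51, adjusted p = 0.000691) and Gpr6 (log2 fold change 1.45, adjusted p = 0.0141), whereas the indirect-pathway markers Drd2, Adora2a and Penk had changes of 0.32, 0.01 and -0.78 and Rgs9 and Six3 of -0.09 and -0.48. Of 5 thalamic markers tested, Lef1 rose (log2 fold change 0.94, adjusted p = 0.0469), and Tcf7l2, Prkcd, Zic1 and Zic4 did not pass the test (log2 fold changes 0.03, -0.07, 0.48 and 0.38). The call of Lef1 was kept in 3 of 11 fits without 1 AL library, with adjusted p up to 0.118. Of 5 markers of the medial habenula, the tachykinin Tac2 rose (log2 fold change 0.86, adjusted p = 0.0247) and Gpr151 fell (log2 fold change -0.65, adjusted p = 0.0446), and the nicotinic subunits Chrnb4, Chrna3 and Chrnb3 had changes of 0.10, -0.27 and 0.79. Tac2 stayed called in 7 of the 11 fits without 1 AL library (highest adjusted p = 0.0797). Gpr151 was called in 4 of the 11 fits that each left out 1 AL library (adjusted p up to 0.135). The shares called were 37.5% in the striatal, 20% in the thalamic and 40% in the habenular list, beside 20.6% of all genes.

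The 2 opposite lists were joined into a region score, the mean log2 level of the 17 neocortex and subiculum markers minus that of the 7 CA1 markers. The score was -1.97, -2.66, -3.55, -3.24 and -2.94 in the 5 AL libraries at 5 months and lay between -0.90 and 1.38 at 15 months, so the ages did not overlap. CR mice had scores between -3.32 and -2.38 at 5 months and between -3.30 and 0.19 at 15 months. With the score as a covariate of the limma fit of all 22 libraries, 0 genes were called between AL mice at 15 and 5 months. At an unadjusted p under 0.05 there were 2163 in that fit, beside 5972 (35.2%) without the score. Since the score separates the 2 ages of AL mice without overlap, age and the marker balance cannot be told apart in these 11 libraries. This holds for each gene family below, and where a family is known to differ between CA1 and cortex the part of the marker balance in its change was not tested.

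**Figure D2:**
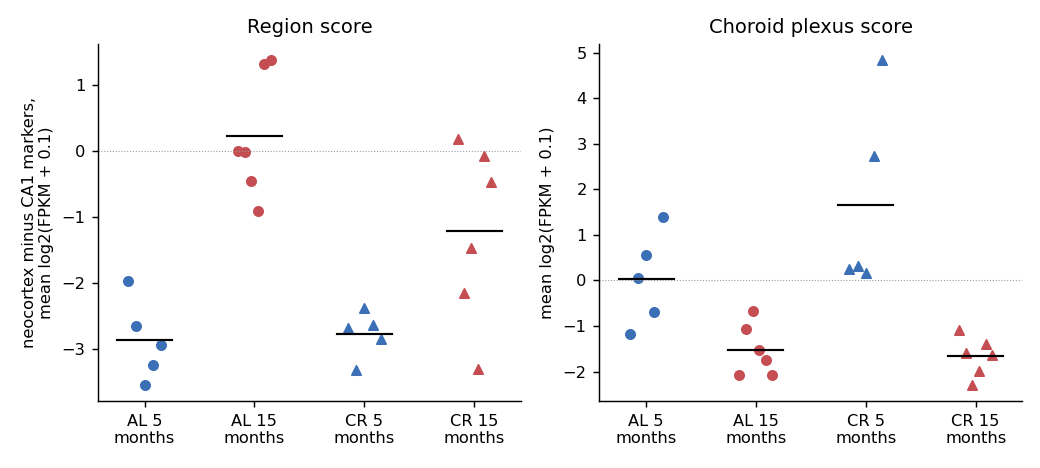
Region score (left) and choroid plexus score (right) of each library in AL mice (circles) and CR mice (triangles) at 5 months (blue) and 15 months (red); bars mark group means. All 6 AL libraries at 15 months have a region score above the 5 AL libraries at 5 months, and CR libraries at 15 months spread over both ranges.

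Many genes of the ventricular lining fell. In the choroid plexus, the epithelium that makes cerebrospinal fluid, 6 of 13 markers fell and 0 rose, and all 13 changes were negative (median log2 fold change -1.78). The 6 were 46.15% of the list, beside 9.97% of all genes called lower. For Ttr the 5 libraries at 5 months gave 27.9, 133, 185, 47.5 and 314 FPKM and the 6 at 15 months gave 0.985 to 16.7 FPKM with a median of 6.92, without overlap. Ttr, the carrier of thyroid hormone and retinol in cerebrospinal fluid, varied widely within each age (log2 fold change -4.15, SE 0.87, adjusted p = 0.00274). As a leading gene, Ttr was chosen for the absence of overlap, which is therefore not a finding. The homeobox gene Otx2 (log2 fold change -2.90, adjusted p = 0.00417) and the chloride channel gene Clic6 (log2 fold change -2.78, adjusted p = 0.0148) also fell. The call of Clic6 was kept in 10 of 11 fits without 1 AL library, with adjusted p up to 0.0517. Across the 11 fits without 1 AL library, 4 to 6 of the 13 genes were called. The summed FPKM of the 13 genes lay between 40.6 and 368 in the younger and between 5.53 and 27.4 in the older mice. With a choroid plexus score as covariate, the number of genes called between AL mice at 15 and 5 months was 2193.

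Of 10 genes of ependyma and motile cilia, 7 fell (70%, beside 9.97% of all genes) and 1 rose (10%, beside 10.7%). Foxj1 had 2.57, 4.57, 8.16, 4.06 and 7.6001 FPKM in the 5 libraries at 5 months, and its lowest, median and highest values at 15 months were 0.837, 0.959 and 2.48 FPKM, without overlap. Foxj1, the transcription factor that starts the motile cilia program, fell by 2.07 on the log2 scale (SE 0.32, adjusted p = 0.000453). Tmem212 (log2 fold change -4.19, adjusted p = 0.000791), Ccdc153 (log2 fold change -2.88, adjusted p = 0.00128) and the dynein light chain Dynlrb2 (log2 fold change -2.52, adjusted p = 0.003397) fell as well, with AL 15 months replicate 2 the highest of its group in each. Spag17, Rsph1 and Rarres2 fell by smaller amounts (log2 fold changes -0.64, -1.19 and -0.74), and these calls were kept in 9, 5 and 3 of the 11 fits without 1 AL library. Ccdc39, needed to assemble inner dynein arms, rose (log2 fold change 0.31, adjusted p = 0.0267) and was called in 8 of the 11 fits. Enkur and Hydin had changes of -0.23 and -0.82. The counts were 4 (without AL 5 months replicate 2 or 4) to 8 genes down and 0 or 1 up across the 11 fits.

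The promoters of genes that fell together are shown for reference. RefSeq start sites on GRCm38.p6 were matched for 7 of the 10 ependymal genes, and the 250 bases before the start of the sharply lower genes Ccdc153 (chr9:44240427-44240676, plus strand) and Dynlrb2 (chr8:116504765-116505014, plus strand) read as follows, with capitals marking GTTGCC, a core of the X box that RFX factors of ciliated cells bind, on either strand.
Ccdc153: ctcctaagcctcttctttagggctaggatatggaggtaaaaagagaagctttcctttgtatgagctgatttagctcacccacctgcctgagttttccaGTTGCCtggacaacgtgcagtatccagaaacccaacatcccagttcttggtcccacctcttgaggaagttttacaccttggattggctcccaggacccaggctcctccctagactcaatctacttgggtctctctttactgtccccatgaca
Dynlrb2: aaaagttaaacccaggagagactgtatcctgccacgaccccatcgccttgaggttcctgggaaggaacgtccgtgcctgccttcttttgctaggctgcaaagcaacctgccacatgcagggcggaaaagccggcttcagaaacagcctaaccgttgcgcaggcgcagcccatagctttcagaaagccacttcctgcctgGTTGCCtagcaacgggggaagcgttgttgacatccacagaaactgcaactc
Windows of 300 bases around the start held GTTGCC in 4 of the 7 matched genes (Ccdc153, Dynlrb2, Enkur and Hydin) and in 12.5% of all 32851 promoters of that length. Other motifs searched on both strands were GGGCGG, found in 2 of the 7 genes and 35.7% of promoters, CCAAT, found in 2 and in 37.4%, the CArG box, found in 0 and in 1.63%, and TGACGTCA, found in 0 and in 1.79%. Of the 4 genes with GTTGCC, Ccdc153 and Dynlrb2 were called and Enkur and Hydin were not.

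Every gene of the Arp2/3 complex fell. This assembly of 2 actin-related proteins and 5 ARPC subunits nucleates branched actin filaments and shapes dendritic spines. All 10 of its genes were downregulated, 8 of them without overlap between the ages, with a median log2 fold change of -0.55; among all genes tested 9.97% were downregulated and 6.77% were lower without overlap. FPKM of Arpc5 was 95.5, 123, 137, 114 and 119 at 5 months and ranged from 42.3 to 59.5, with a median of 48.8, at 15 months, without overlap. Arpc5, at the branch junction of the complex, fell most (log2 fold change -1.25, SE 0.15, adjusted p = 0.000106). Arpc2 stood at 164, 191, 221, 209.6 and 197 FPKM in the mice at 5 months, and in those at 15 months it ran from 93.3 over a median of 107 to 112 FPKM, without overlap. Arpc2, a core subunit, fell by 0.90 on the log2 scale (SE 0.15, adjusted p = 0.000757). For Actr3 the 5 libraries at 5 months gave 111, 125, 154, 124 and 121 FPKM and the 6 at 15 months gave 73.3 to 90.96 FPKM with a median of 80.03, without overlap. Actr3, which encodes the actin-related protein Arp3, came next (log2 fold change -0.64, SE 0.13, adjusted p = 0.00269). The smallest change among the 10 was -0.26. The list was chosen with earlier results of these data known. The paper, from the same mice, names Actr2, Actr3, Arpc2 and Arpc5 as downregulated in normal aging. The count of 10 is therefore a description and not an independent test. Without 1 AL library, 8 to 10 of the genes were called, and the direction of the median was the same after a shift to a common median (-0.59) and after quantile normalization (-0.51). Without the 4 libraries numbered 0, 8 of the 10 were called. In CR mice, 1 of the 10 genes (Arpc5) fell between the same ages, with a median change of -0.17 for the 10.

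**Figure D3:**
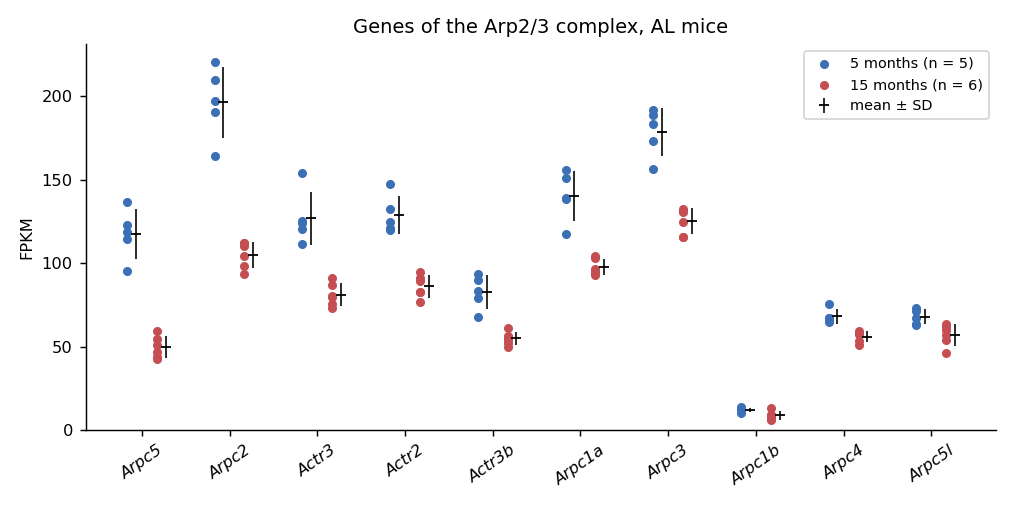
FPKM (linear axis from 0) of the 10 Arp2/3 genes in each AL library at 5 months (blue, n = 5) and 15 months (red, n = 6), with the mean and SD beside the points. In 8 genes, among them Arpc5, Arpc2 and Actr3, no library at 15 months reaches the lowest at 5 months.

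Start sites were matched for 8 of the 10 Arp2/3 genes. The 250 bases before the start of the 2 genes with the largest decreases, Arpc5 (chr1:152766292-152766541, plus strand) and Arpc2 (chr1:74236267-74236516, plus strand), are printed with capitals at GGGCGG, the GC box bound by Sp1-type factors, on either strand.
Arpc5: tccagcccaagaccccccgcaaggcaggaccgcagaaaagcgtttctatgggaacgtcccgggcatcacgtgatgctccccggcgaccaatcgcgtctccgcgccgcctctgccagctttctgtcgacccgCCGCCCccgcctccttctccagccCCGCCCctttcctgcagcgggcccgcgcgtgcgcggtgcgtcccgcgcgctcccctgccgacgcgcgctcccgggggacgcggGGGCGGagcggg
Arpc2: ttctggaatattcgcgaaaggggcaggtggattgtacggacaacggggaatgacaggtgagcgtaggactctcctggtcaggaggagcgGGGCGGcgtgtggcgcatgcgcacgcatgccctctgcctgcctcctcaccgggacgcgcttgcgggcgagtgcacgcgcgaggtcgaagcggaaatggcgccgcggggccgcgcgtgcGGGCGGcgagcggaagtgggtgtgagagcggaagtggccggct
The 2 windows hold 3 and 2 GC boxes. The GC box occurred in 6 of the 8 matched genes and 35.7% of all promoters of 300 bases, CCAAT in 2 of the 8, the CArG box of serum response factor in 1 (Arpc4), GTTGCC in 1 and TGACGTCA in 0.

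Ionotropic glutamate receptors moved in both directions. Of 9 AMPA and kainate receptor subunits, 2 fell and 2 rose, each without overlap (44.4% called, beside 20.6% of all genes). Gria1 had 177, 204, 248, 212 and 201 FPKM in the 5 libraries at 5 months, and its lowest, median and highest values at 15 months were 62.7, 81.6 and 126 FPKM, without overlap. Gria1, the main AMPA receptor subunit of CA1 synapses, fell (log2 fold change -1.31, SE 0.22, adjusted p = 0.000707). FPKM of Gria2 was 184, 174, 209.8, 189 and 182 at 5 months and ranged from 115 to 145, with a median of 132, at 15 months, without overlap. Gria2, the subunit that makes AMPA receptors impermeable to calcium, fell less (log2 fold change -0.51, SE 0.11, adjusted p = 0.00377). Gria4 rose from 22.2 ± 1.84 to 40.9 ± 8.605 FPKM (SD; log2 fold change 0.85, adjusted p = 0.00642) and the kainate receptor subunit Grik3 from 6.36 ± 1.14 to 15.8 ± 1.4999 (log2 fold change 1.31, adjusted p = 0.00139). Among 7 NMDA receptor subunits, the 2 regulatory subunits of adult forebrain, Grin2a (log2 fold change -1.17, adjusted p = 0.00579) and Grin2b (log2 fold change -0.87, adjusted p = 0.0214), fell, and Grin2d rose (log2 fold change 0.58, adjusted p = 0.040997). Grin2b was not called without AL 5 months replicate 2 (adjusted p = 0.0706). Grin2d stayed called in 2 of the 11 fits without 1 AL library (highest adjusted p = 0.09204). Of 7 metabotropic receptors, Grm5, which couples to calcium release, fell (log2 fold change -0.43, adjusted p = 0.00587), and the presynaptic receptors Grm8 (log2 fold change 1.67, adjusted p = 0.00679) and Grm4 (log2 fold change 1.36, adjusted p = 0.00886) rose. The NMDA and metabotropic receptor lists were each called at 42.9%.

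GABA-A receptor subunits fell in 4 of 12 cases (33.3%, beside 9.97% of all genes) and rose in 0. Gabra5 stood at 71.5, 103, 108, 90.8 and 96.7 FPKM in the mice at 5 months, and in those at 15 months it ran from 19.6 over a median of 44.02 to 59.5 FPKM, without overlap. Gabra5, the extrasynaptic subunit typical of the hippocampus, fell by 1.25 on the log2 scale (SE 0.24, adjusted p = 0.00155). Gabra2 (log2 fold change -0.57, adjusted p = 0.0182) and Gabrb1 (log2 fold change -0.49, adjusted p = 0.0145) changed less, and Gabra2 was not called without AL 5 months replicate 2 (adjusted p = 0.0525). Of 14 interneuron genes, 2 rose and 1 fell (21.4% called, beside 20.6% of all genes): Reln, secreted by several interneuron classes, (log2 fold change 0.74, adjusted p = 0.0248) and Cort (log2 fold change 0.61, adjusted p = 0.0499) rose, and the peptide gene Cck (log2 fold change -0.41, adjusted p = 0.0132) fell. Reln was called in 7 of the 11 fits that each left out 1 AL library (adjusted p up to 0.0599). The call of Cort was kept in 3 of 11 fits without 1 AL library, with adjusted p up to 0.125. The median change of the interneuron list was 0.17.

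Receptors for monoamines and acetylcholine were called in 17 of 40 cases (42.5%), 8 up and 9 down, beside 20.6% of all genes; without 1 AL library 6 to 9 rose and 5 (without AL 5 months replicate 2 or 3) to 9 fell. Next to Drd5, the muscarinic receptor Chrm5 (log2 fold change -1.90, adjusted p = 0.0399) and the serotonin receptor Htr5b (log2 fold change -1.72, adjusted p = 0.0306) fell most. Chrm5 stayed called in 4 of the 11 fits without 1 AL library (highest adjusted p = 0.104). Htr5b was called in 7 of the 11 fits that each left out 1 AL library (adjusted p up to 0.0893). The largest increases were in the histamine receptor Hrh1 (log2 fold change 1.82, adjusted p = 0.000602), the D1 dopamine receptor Drd1a and the nicotinic subunit Chrna4 (log2 fold change 1.42, adjusted p = 0.00638). For Hrh1 the 5 libraries at 5 months gave 1.97, 1.901, 1.51, 1.31 and 1.78 FPKM and the 6 at 15 months gave 5.38 to 8.96 FPKM with a median of 5.78, without overlap. The 2 D1-class dopamine receptors therefore moved oppositely, Drd5 down and Drd1a up. Drd5 is the D1-class receptor that prevails in hippocampus and Drd1a the one that prevails in striatum and cortex.

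Neuropeptide genes rose in 5 of 16 cases (2 without AL 5 months replicate 0 or 1 or AL 15 months replicate 4) and fell in 1. The shares were 31.25% up and 6.25% down, beside 10.7% and 9.97% of all genes. Adcyap1, the PACAP precursor, (log2 fold change 2.26, adjusted p = 0.0131), the precursor of the CART peptide Cartpt (log2 fold change 1.77, adjusted p = 0.0371) and corticotropin releasing hormone Crh (log2 fold change 1.24, adjusted p = 0.009898) rose most. Crh had 1.56, 1.72, 1.59, 1.37 and 1.86 FPKM in the 5 libraries at 5 months, and its lowest, median and highest values at 15 months were 2.75, 3.701 and 6.35 FPKM, without overlap. The call of Cartpt was kept in 5 of 11 fits without 1 AL library, with adjusted p up to 0.0871. Among 25 neuropeptide receptors, 9 rose (36%, beside 10.7% of all genes) and 3 fell (12%, beside 9.97%). Without 1 AL library, 6 to 9 rose and 3 or 4 fell. FPKM of Cckbr was 8.48, 4.32, 3.75, 2.89 and 3.63 at 5 months and ranged from 17.3 to 38.4, with a median of 22.04, at 15 months, without overlap. Cckbr, the cholecystokinin receptor of cortex, rose (log2 fold change 2.49, SE 0.47, adjusted p = 0.00132), while its ligand Cck fell. The neurotensin receptor Ntsr1 (log2 fold change 1.90, adjusted p = 0.000894) and the somatostatin receptor Sstr2 (log2 fold change 1.49, adjusted p = 0.00153) rose as well. Mc4r, the melanocortin receptor, (log2 fold change -2.17, adjusted p = 0.000637), Sstr4 (log2 fold change -1.37, adjusted p = 0.00185) and Sstr3 (log2 fold change -0.58, adjusted p = 0.0108) fell. Mc4r stood at 4.49, 3.24, 5.84, 6.48 and 8.08 FPKM in the mice at 5 months, and in those at 15 months it ran from 0.625 over a median of 1.01 to 2.91 FPKM, without overlap. Of 13 genes tested from the pituitary and hypothalamic hormone list, 4 fell (30.8%, beside 9.97% of all genes). The count was 2 without AL 5 months replicate 4, and 1 with the choroid plexus score as covariate. The decreases were led by Oxt (log2 fold change -3.48, adjusted p = 0.00306), the melanin-concentrating hormone precursor Pmch (log2 fold change -2.02, adjusted p = 0.0145) and hypocretin Hcrt (log2 fold change -1.44, adjusted p = 0.0299). Agrp rose (log2 fold change 0.69, adjusted p = 0.0162). Hcrt stayed called in 5 of the 11 fits without 1 AL library (highest adjusted p = 0.08596). The summed FPKM of the hormone list lay between 7.75 and 107.7 in the younger and between 6.55 and 21.5 in the older mice. The highest sum came from AL 5 months replicate 3 and the next, 42.9, from replicate 4.

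Calcium signaling genes changed in both directions, with sharp contrasts between isoforms. For Camk2d the 5 libraries at 5 months gave 11.9, 9.35, 7.59, 9.78 and 10.8 FPKM and the 6 at 15 months gave 48.8 to 67.6 FPKM with a median of 55.7, without overlap. Camk2d, the delta isoform of calcium/calmodulin-dependent kinase II, rose more than any other member of the kinase and calcineurin list (log2 fold change 2.52, SE 0.38, adjusted p = 0.000403). Camk2g rose by 0.47 (adjusted p = 0.00273), whereas Camk2b (log2 fold change -0.57, adjusted p = 0.0133), the pseudokinase Camkv (log2 fold change -0.52, adjusted p = 0.01203) and the calcineurin catalytic subunit Ppp3ca (log2 fold change -0.90, adjusted p = 0.00553) fell. In all, 2 of the 15 genes of that list rose and 5 fell (46.7% called, beside 20.6% of all genes). Ppp3ca had 459, 572, 668, 524 and 509.6 FPKM in the 5 libraries at 5 months, and its lowest, median and highest values at 15 months were 242, 297 and 346 FPKM, without overlap. Of 9 protein kinase C genes 3 fell, among them Prkca (log2 fold change -0.84, adjusted p = 0.0119) and Prkce (log2 fold change -0.45, adjusted p = 0.00489), and 0 rose. The 3 were 33.3% of the list, beside 9.97% of all genes called lower. Among 15 calcium stores, pumps and exchangers, 3 rose (2 to 4 without 1 AL library) and 4 fell (2 without AL 5 months replicate 0 or 2). The share called in this list was 46.7%. FPKM of Atp2b4 was 16.1, 11.2, 12.8, 12.6 and 13.5 at 5 months and ranged from 31.98 to 70.4, with a median of 53.2, at 15 months, without overlap. The plasma membrane calcium pump Atp2b4 rose (log2 fold change 1.90, SE 0.38, adjusted p = 0.00214) while the pumps Atp2b1 (log2 fold change -1.13, adjusted p = 0.00183) and Atp2b3 (log2 fold change -0.47, adjusted p = 0.0281) fell. Atp2b3 was called in 7 of the 11 fits that each left out 1 AL library (adjusted p up to 0.06798). The ryanodine receptor Ryr3 fell (log2 fold change -0.89, adjusted p = 0.0119), and the exchanger Slc8a3 (log2 fold change 0.87, adjusted p = 0.00195) and the inositol trisphosphate receptor Itpr3 (log2 fold change 0.80, adjusted p = 0.02496) rose. The call of Itpr3 was kept in 7 of 11 fits without 1 AL library, with adjusted p up to 0.0641. Of 15 voltage-gated calcium channel subunits, Cacnb2 (log2 fold change -0.82, adjusted p = 0.000658) and the T-type channel Cacna1h (log2 fold change -0.82, adjusted p = 0.0135) fell and Cacnb4 rose (log2 fold change 0.70, adjusted p = 0.01305). These 3 calls were 20.0% of the list, near the 20.6% of all genes. Atp2b1 stood at 142, 141, 219.6, 184 and 161 FPKM in the mice at 5 months, and in those at 15 months it ran from 61.6 over a median of 76.4 to 91.6 FPKM, without overlap.

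Voltage-gated potassium channels were called in 9 of 32 cases, 5 up (15.6%, beside 10.7% of all genes) and 4 down (12.5%, beside 9.97%). The modulatory subunit Kcng2 (log2 fold change -1.41, adjusted p = 0.00576), Kcns3 (log2 fold change -0.74, adjusted p = 0.0426) and Kcnd2, which carries the dendritic A-type current of CA1 neurons, (log2 fold change -0.70, adjusted p = 0.0142) fell. For Kcng2 the 5 libraries at 5 months gave 11.99, 13.5, 11.4, 11.7 and 12.7 FPKM and the 6 at 15 months gave 2.52 to 7.27 FPKM with a median of 5.57, without overlap. Kcns3 stayed called in 4 of the 11 fits without 1 AL library (highest adjusted p = 0.0945). Kcnh4 (log2 fold change 1.96, adjusted p = 0.000401), the fast-spiking channel Kcnc4 (log2 fold change 1.15, adjusted p = 0.003201) and Kcns1 (log2 fold change 1.14, adjusted p = 0.00464) rose. Of 12 sodium and HCN channels, the beta subunit Scn3b fell (log2 fold change -1.06, adjusted p = 0.00102) and the pacemaker channel Hcn4 rose (log2 fold change 1.48, adjusted p = 0.005797). These 2 calls were 16.7% of the list, below the 20.6% of all genes. Scn3b had 87.3, 95.6, 105, 115 and 92.5 FPKM in the 5 libraries at 5 months, and its lowest, median and highest values at 15 months were 39.8, 47.5 and 54.7 FPKM, without overlap.

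Axon guidance families were called more often than the 20.6% of all genes in 2 of 3 lists. Among 31 semaphorins, plexins and neuropilins, 7 rose (4 without AL 5 months replicate 1, and up to 8 without another AL library) and 4 fell (3 or 4). FPKM of Sema3e was 18.02, 17.5, 21.7, 16.9 and 21.3 at 5 months and ranged from 4.03 to 7.52, with a median of 5.03, at 15 months, without overlap. Sema3e, a secreted ligand of Plxnd1, fell (log2 fold change -1.86, SE 0.30, adjusted p = 0.000566), and the receptor gene Plxnd1 had 4.24, 4.45, 4.56, 7.14 and 4.92 FPKM at 5 months and between 14.6 and 25.8 FPKM (median 19.2) at 15 months; Plxnd1 itself rose (log2 fold change 1.90, SE 0.28, adjusted p = 0.000377). The receptors Nrp1 (log2 fold change -1.04, adjusted p = 0.0154) and Plxna1 (log2 fold change -0.84, adjusted p = 0.00152) fell, and Sema3a (log2 fold change 2.05, adjusted p = 0.00131) and Sema3f (log2 fold change 1.80, adjusted p = 0.0266) rose. Sema3f was called in 7 of the 11 fits that each left out 1 AL library (adjusted p up to 0.0598). Among 22 ephrins and Eph receptors, 3 rose and 6 fell. For Epha6 the 5 libraries at 5 months gave 23.996, 23.5, 28.4, 25.3 and 24.5 FPKM and the 6 at 15 months gave 7.04 to 9.76 FPKM with a median of 8.42, without overlap. Epha6 was separated by a wide gap (log2 fold change -1.61, SE 0.26, adjusted p = 0.000602), and Epha7 (log2 fold change -1.40, adjusted p = 0.00413) and Epha4 (log2 fold change -1.01, adjusted p = 0.0158) fell with it. Epha8 (log2 fold change 2.06, adjusted p = 0.000403) and the ligands Efna5 (log2 fold change 1.89, adjusted p = 0.00419) and Efna1 (log2 fold change 0.61, adjusted p = 0.0354) rose. The call of Efna1 was kept in 4 of 11 fits without 1 AL library, with adjusted p up to 0.115. Of 15 genes of the Slit, Robo, netrin and Unc5 families, the repellent Slit1 fell (log2 fold change -1.08, adjusted p = 0.00993), and the netrin receptor Unc5d (log2 fold change 1.26, adjusted p = 0.0145) and Ntn4 (log2 fold change 0.72, adjusted p = 0.00499) rose.

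Wnt ligands and antagonists were called in 10 of 27 cases, 6 up (2 without AL 5 months replicate 2, and up to 7 without another AL library) and 4 down (3 to 5). The share called was 37.0%, beside 20.6% of all genes. Wnt2 had 3.74, 4.67, 6.504, 8.32 and 6.39 FPKM in the 5 libraries at 5 months, and its lowest, median and highest values at 15 months were 1.18, 1.93 and 2.897 FPKM, without overlap. Wnt2 fell (log2 fold change -1.59, SE 0.31, adjusted p = 0.00185), as did the secreted antagonists Wif1 (log2 fold change -1.15, adjusted p = 0.000453) and Dkk3 (log2 fold change -0.79, adjusted p = 0.0279). Dkk3 stayed called in 7 of the 11 fits without 1 AL library (highest adjusted p = 0.0728). Dkkl1 (log2 fold change 2.92, adjusted p = 0.00326), Wnt10a (log2 fold change 1.37, adjusted p = 0.0173) and Sfrp2 (log2 fold change 0.82, adjusted p = 0.0435) rose, and Wnt10a was not called without AL 5 months replicate 2 (adjusted p = 0.0522). Sfrp2 was called in 3 of the 11 fits that each left out 1 AL library (adjusted p up to 0.0931). FPKM of Dkkl1 was 3.91, 1.72, 1.2996, 1.06 and 1.39 at 5 months and ranged from 7.76 to 29.8, with a median of 10.4, at 15 months, without overlap. Collagens were called in 10 of 42 cases (23.8%, near the 20.6% of all genes), 8 up (7 to 10 without 1 AL library) and 2 down (1 to 3). Col24a1 (log2 fold change 2.61, adjusted p = 0.00179), Col23a1 (log2 fold change 2.03, adjusted p = 0.00173) and Col5a1 (log2 fold change 1.83, adjusted p = 0.00302) rose and Col11a1 (log2 fold change -1.74, adjusted p = 0.00394) and Col25a1 (log2 fold change -0.84, adjusted p = 0.0329) fell. The call of Col25a1 was kept in 3 of 11 fits without 1 AL library, with adjusted p up to 0.0745. Col23a1 stood at 1.89, 2.09, 1.55, 1.399 and 4.25 FPKM in the mice at 5 months, and in those at 15 months it ran from 6.93 over a median of 8.37 to 11.2 FPKM, without overlap.

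Presynaptic genes rose in 8 of 30 cases (26.7%, beside 10.7% of all genes) and fell in 1 (3.33%, beside 9.97%), with 6 to 8 higher and 0 or 1 lower without 1 AL library. Postsynaptic scaffold genes rose in 2 of 24 cases (8.33%) and fell in 4 (16.7%), near the shares of all genes, and the difference between the lists was not tested. For Stx1a the 5 libraries at 5 months gave 53.8, 57.4, 49.6, 45.2 and 50.4 FPKM and the 6 at 15 months gave 80.02 to 165 FPKM with a median of 98.8, without overlap. Stx1a, the syntaxin of the vesicle fusion complex, rose (log2 fold change 1.09, adjusted p = 0.00129), and Unc13c (log2 fold change 1.86, adjusted p = 0.00386) and Rab3b (log2 fold change 1.14, adjusted p = 0.00206) rose with it. The complexin Cplx2 fell (log2 fold change -0.44, adjusted p = 0.04997). Cplx2 stayed called in 2 of the 11 fits without 1 AL library (highest adjusted p = 0.127). On the postsynaptic side, Homer3, Lrrtm1 (log2 fold change -0.64, adjusted p = 0.00172) and Homer2 (log2 fold change -0.54, adjusted p = 0.0308) fell and Lrrtm3 (log2 fold change 1.25, adjusted p = 0.00638) and Dlg1, which encodes SAP97, (log2 fold change 0.74, adjusted p = 0.000831) rose. Homer2 was called in 5 of the 11 fits that each left out 1 AL library (adjusted p up to 0.0906). The 2 leucine-rich repeat proteins Lrrtm1 and Lrrtm3, both organizers of excitatory synapses, moved oppositely.

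**Figure D4:**
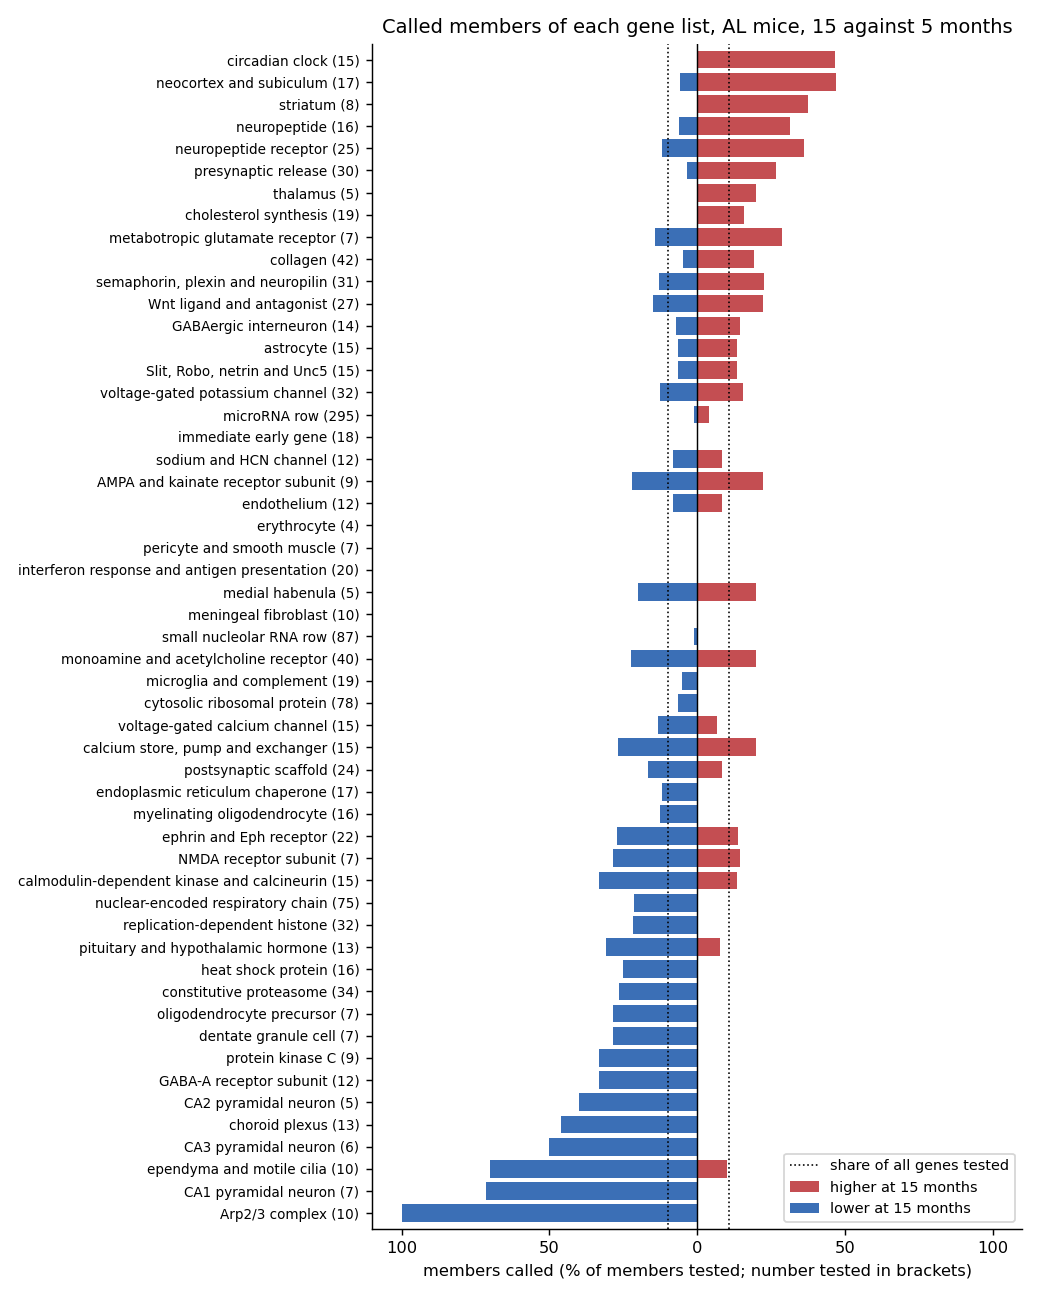
Share of the tested members of each gene list (number in brackets) called higher (red, right) or lower (blue, left) in AL mice at 15 than at 5 months; dotted lines mark the shares over all 16978 genes, 10.7% higher and 9.97% lower. The Arp2/3 complex reaches 100% on the left, and the circadian clock and neocortex lists extend farthest to the right.

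Myelin genes had negative changes, and the number that passed the test depended on scaling and on single libraries. All 16 myelin genes were lower on average at 15 months (median -0.80), and 2 were called (12.5%), beside 6 after a shift to a common median. In 4 of the 16 the ages did not overlap. No myelin gene was called without AL 5 months replicate 1 or 4 or AL 15 months replicate 1 or 2, and 5 were called without AL 15 months replicate 3. Opalin had 19.9, 21.1, 19.4, 21.99 and 23.7 FPKM in the 5 libraries at 5 months, and its lowest, median and highest values at 15 months were 4.37, 9.98 and 13.6 FPKM, without overlap. Opalin, a membrane protein of oligodendrocytes, fell (log2 fold change -1.33, adjusted p = 0.0269). The call of Opalin was kept in 7 of 11 fits without 1 AL library, with adjusted p up to 0.0633. Of 7 precursor markers 2 were called (1 to 3 without 1 AL library): Neu4 (log2 fold change -0.61, adjusted p = 0.00607) and C1ql1 (log2 fold change -0.70, adjusted p = 0.0268) fell, while Pdgfra, Cspg4, Gpr17, Enpp6 and Bmp4 had changes of 0.14, 0.14, -0.23, -0.82 and -0.35. C1ql1 stayed called in 7 of the 11 fits without 1 AL library (highest adjusted p = 0.0662). The calls were 28.6% of the precursor list and 12.5% of the myelin list, beside 20.6% of all genes. The summed FPKM of the myelin list lay between 1423 and 2293 in the younger and between 687 and 1505 in the older mice.

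Astrocyte genes were called in 3 of 15 cases (20.0%), near the 20.6% of all genes. FPKM of Agxt2l1 was 0.558, 0.326, 0.386, 0.7597 and 1.602 at 5 months and ranged from 1.93 to 8.23, with a median of 4.23, at 15 months, without overlap. Agxt2l1, an ethanolamine-phosphate phospho-lyase of astrocytes, rose (log2 fold change 2.44, SE 0.39, adjusted p = 0.000563), and Aldh1l1 rose modestly (log2 fold change 0.43, adjusted p = 0.00348). Gfap stood at 114, 137, 112, 115 and 129 FPKM in the mice at 5 months, and in those at 15 months it ran from 53.3 over a median of 72.7 to 141 FPKM, with overlap between the ages. Gfap, the intermediate filament that is raised in reactive astrocytes, was lower on average (log2 fold change -0.66, adjusted p = 0.0388), with 1 library at 15 months above all of those at 5 months. Gfap was called in 3 of the 11 fits that each left out 1 AL library (adjusted p up to 0.0871). Of 19 genes of microglia and complement, 1 was called: the homeostatic marker Tmem119 fell (log2 fold change -0.60, adjusted p = 0.0224), and the list median was -0.28. The call of Tmem119 was kept in 8 of 11 fits without 1 AL library, with adjusted p up to 0.0522. That 1 call was 5.26% of the list, beside 20.6% of all genes. Among 20 genes of interferon response and antigen presentation 0 were called by limma (2 at an unadjusted p under 0.05), with changes from -0.35 to 0.94.

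Vascular and blood lists are short, and the endothelial list was called at 16.7%, near the 20.6% of all genes. Of 12 endothelial genes, Vwf, the von Willebrand factor, rose (log2 fold change 0.96, adjusted p = 0.009295) and Itm2a fell (log2 fold change -0.36, adjusted p = 0.0272). Itm2a stayed called in 6 of the 11 fits without 1 AL library (highest adjusted p = 0.0652). In the limma fit 0 of 7 pericyte and smooth muscle genes were called (1 at an unadjusted p under 0.05), 0 of 10 meningeal fibroblast genes (1) and 0 of 4 erythrocyte genes (0). Meningeal genes varied widely at 15 months: their summed FPKM ran from 16.99 to 210.2, beside 37.7 to 89.2 at 5 months.

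Of 18 immediate early genes, which report recent neuronal activity, 0 were called by limma (5 at an unadjusted p under 0.05), although 14 had positive changes (median 0.47) and up to 3 were called without 1 AL library. For Fos the 5 libraries at 5 months gave 9.11, 15.3, 8.81, 4.23 and 3.38 FPKM and the 6 at 15 months gave 4.09 to 62.3 FPKM with a median of 14.7, with overlap between the ages. Fos, which was chosen after its values were seen, did not pass the test (log2 fold change 1.25, adjusted p = 0.131). Circadian clock genes rose in 7 of 15 cases (46.7%, beside 10.7% of all genes) and fell in 0. The hour at which each mouse was killed is not given in the sources used here, and its part in the change was not tested. Cry1 had 5.88, 4.66, 3.68, 4.47 and 4.9002 FPKM in the 5 libraries at 5 months, and its lowest, median and highest values at 15 months were 6.66, 7.16 and 8.56 FPKM, without overlap. Cry1, a repressor of the clock, rose (log2 fold change 0.65, SE 0.11, adjusted p = 0.000757). Npas2, a partner of Bmal1 in forebrain, (log2 fold change 0.93, adjusted p = 0.015997) and the output factor Hlf (log2 fold change 0.83, adjusted p = 0.0182) rose as well. Npas2 was not called without AL 5 months replicate 1 (adjusted p = 0.0541), and Hlf was not called without AL 5 months replicates 2 or 4 (adjusted p up to 0.05204). Across the 11 fits without 1 AL library, 4 (without AL 5 months replicate 0 or 2 or AL 15 months replicate 5) to 8 clock genes were called, and without the 4 libraries numbered 0, 3 were.

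Genes of the respiratory chain and the proteasome had small negative changes. All 75 nuclear-encoded subunits of the respiratory chain had negative changes (median -0.24), and 16 were called (21.3%, beside 20.6% of all genes called and 9.97% called lower); the count was 25 after a shift to a common median and 10 after quantile normalization, where 7 changes were positive. FPKM of Atp5g1 was 173, 218, 211, 174 and 206 at 5 months and ranged from 137 to 159, with a median of 148, at 15 months, without overlap. Atp5g1, of the ATP synthase ring, fell by 0.41 on the log2 scale (adjusted p = 0.007204), Ndufa3 of complex I by 0.41 (adjusted p = 0.0184) and Uqcr11 of complex III by 0.40 (adjusted p = 0.0368). Uqcr11 was called in 4 of the 11 fits that each left out 1 AL library (adjusted p up to 0.0966). The call of Ndufa3 was kept in 9 of 11 fits without 1 AL library, with adjusted p up to 0.0579. Without 1 AL library, 6 (without AL 5 months replicate 4) to 19 genes of the list were called. All 34 proteasome subunits were negative too (median -0.19), with 9 called (26.5%; 3 without AL 5 months replicate 2, and up to 10 without another AL library); 3 were positive after quantile normalization. Psmb5 stood at 139, 161, 163, 131 and 153 FPKM in the mice at 5 months, and in those at 15 months it ran from 90.1 over a median of 100.02 to 114 FPKM, without overlap. Psmb5, a catalytic subunit, fell (log2 fold change -0.57, SE 0.10, adjusted p = 0.000661), and Psmb3 (log2 fold change -0.36, adjusted p = 0.0125) and Psmb6 (log2 fold change -0.33, adjusted p = 0.0304) changed less. Psmb6 stayed called in 6 of the 11 fits without 1 AL library (highest adjusted p = 0.0912). Of 78 ribosomal protein genes 5 fell (6.41%, beside 20.6% of all genes, and 1 without AL 5 months replicate 1, 2 or 4 or AL 15 months replicate 1), among them Rpl30 (log2 fold change -0.42, adjusted p = 0.0155).

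All called members of the chaperone and histone lists fell. Their shares were near or below the 20.6% of all genes called in either direction, while 9.97% of all genes were called lower. Of 16 genes in the heat shock protein list 4 fell (25.0%, beside 20.6% of all genes called in either direction and 9.97% called lower), including the mitochondrial co-chaperonin Hspe1 (log2 fold change -0.44, adjusted p = 0.003405), Dnaja4 (log2 fold change -0.35, adjusted p = 0.0126) and Bag3 (log2 fold change -0.55, adjusted p = 0.0363), and 0 rose. The count was 2 without AL 5 months replicate 0, 1, 2 or 4, 5 without AL 15 months replicate 5 and 6 after a shift to a common median. Bag3 was called in 4 of the 11 fits that each left out 1 AL library (adjusted p up to 0.0821). Of 17 chaperones of the endoplasmic reticulum 2 fell (11.8%), Sdf2l1 (log2 fold change -0.62, adjusted p = 0.0354) and Pdia3 (log2 fold change -0.27, adjusted p = 0.03103), and 5 were called lower after a shift to a common median. No member was called without AL 5 months replicate 0 or 1, and 3 were without AL 15 months replicate 3. The call of Sdf2l1 was kept in 5 of 11 fits without 1 AL library, with adjusted p up to 0.0984. Pdia3 stayed called in 5 of the 11 fits without 1 AL library (highest adjusted p = 0.0811). Replication-dependent histone genes, whose transcripts mostly lack a poly(A) tail, were tested in 32 of the 68 cases in the matrix. They fell in 7 of the 32 (21.9%, beside 9.97% of all genes called lower) and rose in 0. Hist1h2be (log2 fold change -1.05, adjusted p = 0.01196) and Hist2h3c2 (log2 fold change -1.003, adjusted p = 0.00397) were among the 7. Cholesterol synthesis genes went the other way: all 19 changes were positive (median 0.19; 18 were positive after a common median shift and 18 after quantile normalization), and 3 were called (15.8%; 1 without AL 5 months replicate 2 or 4 or AL 15 months replicate 5), among them Tm7sf2 (log2 fold change 0.43, adjusted p = 0.0306) and Lss (log2 fold change 0.33, adjusted p = 0.0197). With the region score as covariate, 3 of the 19 changes were positive, with a median of -0.30. Tm7sf2 was called in 6 of the 11 fits that each left out 1 AL library (adjusted p up to 0.07897). Lss was not called without AL 5 months replicate 1 (adjusted p = 0.0634). MicroRNA genes, which are short and carry inflated FPKM values in mRNA libraries, were called in 15 of 295 rows (5.08%, beside 20.6% of all genes), 12 up and 3 down, and small nucleolar RNA genes in 1 of 87. Of the microRNA rows, 6 were called higher without AL 5 months replicate 2 and 5 with the choroid plexus score as covariate.

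CR mice gave a second comparison of the same ages with no library in common. There 570 of 16978 genes (3.36%) were called, 186 up (1.10%) and 384 down (2.26%), beside 3049 (18.0%) at an unadjusted p under 0.05, and 434 of the called genes were also called in AL mice. These 434 genes made up 12.4% of the AL calls and 76.1% of the CR calls, and all had the same direction in both diets, 152 up and 282 down. Of the 3502 AL calls, 94.6% had the same sign in CR mice, beside 73.5% of all genes tested. The AL calls had a median size of change of 0.57, and their median change in CR mice, taken in the AL direction, was 0.25. The CR count fell to 331 without CR 5 months replicate 1 and to 347 without CR 5 months replicate 4, and it was 316 without the 4 libraries numbered 0. A test of the difference itself, the age by diet interaction, called 0 genes in limma (1301 at an unadjusted p under 0.05, 7.66% of those tested), and no gene was shown to change differently with age between diets. Without AL 15 months replicate 5 the interaction called 1 gene.

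Named genes differed in how far CR mice followed. Ttr, Tmem212 and Foxj1 had CR changes of -5.27, -4.67 and -2.39, each called, and Krt15, Calml4 and 1700024G13Rik had -3.55, -3.78 and -4.16, each called. Of the choroid plexus list 11 of 13 genes fell in CR mice and of the ependymal list 8 of 10, beside 2.26% of all genes. In CR mice at 5 months, replicates 3 and 4 stood apart in the choroid plexus score, the mean log2 level of its markers other than Ttr and Kl, at 2.73 and 4.83 beside 0.166 to 0.309 in the other 3 libraries. Without both, 5 of the 13 choroid plexus genes fell (median -1.62, beside -3.18 with them) and 6 of the 10 ependymal genes, and Ttr changed by -3.97 (adjusted p = 0.0316) in the limma fit. The 6 genes above were called without both libraries as well, and the CR count was 230 (60 up, 170 down). Among the CA1 markers 0 of 7 were called in CR mice, with Spink8 at -2.19 (adjusted p = 0.0677) and Fibcd1 at -2.56 (adjusted p = 0.0548). The neocortical marker Cplx3 (1.88, adjusted p = 0.0214, and 0.0824 without both libraries) was called, and Cux2 (1.01, adjusted p = 0.0552) was not. Gria1 changed by -0.59 in CR mice (adjusted p = 0.154), Camk2d by 1.07 (adjusted p = 0.137), Drd5 by -1.31 (adjusted p = 0.177) and Epha7 by 0.20 (adjusted p = 0.782). Since the interaction passed the threshold for none of them, these values stand side by side without a difference being shown.

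**Figure D5:**
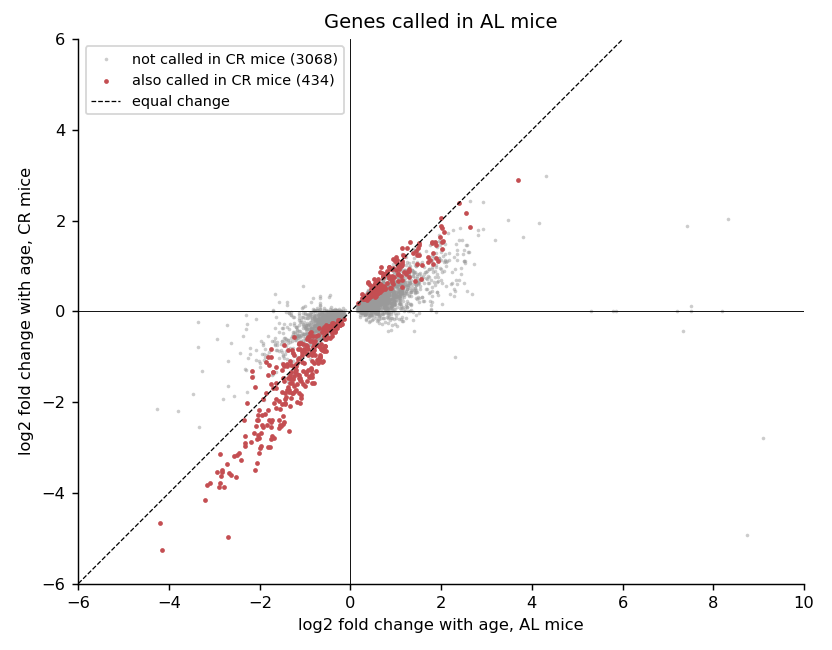
Log2 fold change from 5 to 15 months in AL mice (x axis) and in CR mice (y axis) for the 3502 genes called in AL mice; the 434 genes also called in CR mice are red and the dashed line marks equal change. Most points lie in the quadrants of equal sign and, for upregulated genes, below the line.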

How the data were processed

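Hippocampal CA1 mRNA was sequenced from 22 mice, 1 library each, as paired reads of a kit that does not mark strand. Per the labels and the methods, the authors aligned reads to mm10 with TopHat, removed likely duplicates with Picard and estimated FPKM per gene with Cufflinks, with fragment-bias and multi-read correction; the annotation release is not given in the sources used here. The deposited matrix holds FPKM values of 23361 genes, so reads shared by paralogs or overlapping and antisense genes cannot be separated.

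The 16978 genes whose FPKM averaged 0.1 or more across the 22 libraries were tested as log2(FPKM + 0.1) with limma 3.58.1 (R 4.3.3), intensity trend on, 4 diet and age groups in 1 fit, with Benjamini-Hochberg adjustment over all tested genes. The script was tested on simulated data. Members and lists were chosen with earlier results of these data known. Named genes were the 12 largest changes in each direction without overlap and with a mean of at least 1 FPKM in either AL group, the 3 largest called changes per list and direction at that level, and all members of region or cell type lists of 10 or fewer genes; others are marked as chosen after their values were seen. Alternatives were other added constants, filters, scalings, models and covariates, and leaving out libraries; omitting the libraries numbered 0 or CR 5 months replicates 3 and 4 was chosen after seeing the data. Some genes that meet these rules are not reported here. Promoters are RefSeq sequences (GRCm38.p6).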

Additional observations from a re-analysis of the deposited data

Results flagged for a closer look

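Single libraries stood apart from the rest of their group in 30 of the 426 groups of values tested (7.04%). Each was flagged because its gap to the nearest other library was above Dixon's 95% critical share of the group's range, which chance passes in about 1 in 20 groups. The most flags fell on AL 15 months replicate 2, with 12. No explanation was tested.

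In AL 15 months replicate 2, 1700024G13Rik was high at 0.712 FPKM beside 0.0645 to 0.137, Krt15 was high at 0.275 FPKM beside 0 to 0.0353, Amigo2 was high at 15.4 FPKM beside 3.697 to 5.202, Cux2 was low at 10.1 FPKM beside 20.4 to 25.9, Cplx3 was low at 3.42 FPKM beside 8.56 to 12.6, Six3 was high at 1.68 FPKM beside 0.0213 to 0.174, Penk was high at 127 FPKM beside 10.96 to 18.7, Tmem212 was high at 2.81 FPKM beside 0 to 0.252, Ccdc153 was high at 3.56 FPKM beside 0.207 to 0.664, Foxj1 was high at 2.48 FPKM beside 0.837 to 1.06, Tnfrsf11a was low at 1.06 FPKM beside 1.33 to 1.51 and Igfbpl1 was high at 0.569 FPKM beside 0.0183 to 0.0962. In AL 15 months replicate 1, Zic1 was high at 7.95 FPKM beside 1.23 to 2.16, Zic4 was high at 1.76 FPKM beside 0.1397 to 0.384, Bmp4 was high at 3.19 FPKM beside 0.461 to 0.886 and Lin28b was high at 2.33 FPKM beside 1.86 to 2.01. In AL 5 months replicate 0, Cacnb4 was high at 29.96 FPKM beside 21.2 to 23.3, Kcns1 was high at 5.08 FPKM beside 2.65 to 3.13, Sema3f was high at 1.66 FPKM beside 0.746 to 0.918 and Dlg1 was high at 35.04 FPKM beside 24.9 to 26.5. In AL 5 months replicate 2, Drd5 was high at 13.9 FPKM beside 9.905 to 10.4, Grin2a was high at 25.8 FPKM beside 17.8 to 19.5 and Cacnb2 was high at 30.8 FPKM beside 23.2 to 25.1. In AL 15 months replicate 5, Grik4 was low at 6.23 FPKM beside 9.86 to 11.6 and Hrh1 was high at 8.96 FPKM beside 5.38 to 6.28. In AL 5 months replicate 3, Ryr3 was high at 15.2 FPKM beside 10.5 to 11.4 and Plxnd1 was high at 7.13 FPKM beside 4.24 to 4.92. In AL 5 months replicate 4, Adora2a was high at 1.31 FPKM beside 0.625 to 0.749 and Top2a was high at 0.937 FPKM beside 0.327 to 0.445. In AL 15 months replicate 3, Pmch was low at 0.0476 FPKM beside 0.187 to 0.277.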

How the results depend on the processing

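Of the genes named in the text as called in AL mice, none changed direction under the alternatives run except with the region score as covariate, which turned those listed at the end. The number of called genes was 3479 without a filter and 2916 among genes averaging 1 FPKM or more, 4313 in a fit of the AL libraries alone, and 2702 without the libraries numbered 0. With the region score as covariate it was 0 (0 higher, 0 lower), and with the choroid plexus score 2193 (1196 higher, 997 lower). Leaving out 1 AL library gave 2382 to 3438 calls, 1265 to 1782 higher and 1117 (without AL 5 months replicate 2) to 1656 lower. The cause was not tested.

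In CR mice the count was 304 (117 higher, 187 lower) among genes averaging 1 FPKM or more, 324 (87 and 237) in a fit of the CR libraries alone, 215 (64 and 151) with the region score, 0 (0 and 0; 1202 at an unadjusted p under 0.05 in limma) with the choroid plexus score, 316 (76 and 240) without the libraries numbered 0, and 230 (60 and 170) without CR 5 months replicates 3 and 4. Leaving out 1 CR library gave 331 to 775 calls, 78 to 318 higher and 243 to 457 lower. The age by diet interaction called 0 or 1 genes when 1 library was left out. The replicate numbers did not pair the samples: same-numbered AL libraries correlated at -0.079 to 0.031. With a replicate block, 3754 genes were called in AL mice, 617 in CR mice and 0 in the interaction (1638 at an unadjusted p under 0.05). Absolute depth is unknown, which limits what can be said of genes near 0 FPKM.

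Log2 fold changes of genes named in the text changed sign in these cases, and for those the cause was not tested. With the region score as covariate, the log2 fold change was 0.03816 for Dsp, 0.1498 for Fibcd1, -0.05984 for Dkkl1, 0.3091 for Mpped1, 0.2151 for Ntf3, 0.3729 for Prox1, 0.6081 for C1ql2, 0.02716 for Tdo2, 0.1748 for Prkcd, -0.2816 for Zic4, 0.2647 for Chrna3, 0.4122 for Rgs9, 0.06245 for C1ql1, 0.06832 for Gfap, -0.1043 for Gria4, -0.06056 for Grm8, 0.6425 for Htr5b, -0.214 for Adcyap1, 0.1227 for Cacna1h, 0.02055 for Camkv, 0.1966 for Homer2, 0.02262 for Bag3, 0.05615 for Col25a1 and -0.5606 for Fos. With the choroid plexus score as covariate, the log2 fold change was 0.2077 for Map3k15, -0.005724 for Trpc6, 0.363 for Prkcd, -0.002402 for Adora2a, 0.2555 for Six3 and 0.01519 for Bmp4. With the data without the libraries numbered 0, the log2 fold change was 0.02698 for Bok, 0.02439 for Pvrl3, -0.03491 for Tcf7l2 and 0.05927 for Prkcd. With a common median, the log2 fold change was -0.01471 for Tcf7l2 and -0.03384 for Adora2a. With quantile normalization, the log2 fold change was -0.08997 for Tcf7l2, -0.008393 for Chrnb4 and -0.1067 for Adora2a. With a replicate block, the log2 fold change was 0.01325 for Prkcd. When 1 AL library was left out, the log2 fold change of genes that were not called and crossed 0 ran from -0.1001 to 0.1765 for Adora2a, from -0.3743 to 0.1495 for Bok, from -0.2707 to 0.06849 for Prkcd, from -0.2046 to 0.1011 for Rgs9, from -0.01891 to 0.1207 for Tcf7l2, from -0.09885 to 0.2517 for Trpc6 and from -0.02267 to 0.5679 for Zic4.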

Other observations

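A few genes outside the lists, chosen after their values were seen, are given as single values and say nothing of a group. The kinetochore gene Nuf2 fell from 2.47 ± 0.501 to 0.815 ± 0.143 FPKM (SD, n = 5 and 6; log2 fold change -1.48, adjusted p = 2.9e-05), the topoisomerase Top2a from 0.508 ± 0.244 to 0.08496 ± 0.0285 (log2 fold change -1.66, adjusted p = 0.000134), the kinase Pbk from 0.555 ± 0.187 to 0.0951 ± 0.05503 (log2 fold change -1.75, adjusted p = 0.000134), the cyclin Ccnb1 from 0.383 ± 0.147 to 0.0716 ± 0.0306 (log2 fold change -1.46, adjusted p = 0.000147) and Mki67, the antigen of cycling cells, from 0.415 ± 0.118 to 0.191 ± 0.0376 (log2 fold change -0.80, adjusted p = 0.00954). Igfbpl1, a gene of young granule neurons, fell from 0.656 ± 0.378 to 0.133 ± 0.215 (log2 fold change -1.87, adjusted p = 0.00447), whereas Dcx, a microtubule protein of migrating neurons, rose from 3.04 ± 0.461 to 7.99 ± 2.098 (log2 fold change 1.34, adjusted p = 0.00157).

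Other genes outside the lists also stood apart. The cell cycle inhibitor Cdkn1a rose from 3.92 ± 1.38 to 7.91 ± 0.943 FPKM (log2 fold change 1.06, adjusted p = 0.00692), the RNA-binding protein gene Lin28b from 0.419 ± 0.0473 to 2.001 ± 0.171 (log2 fold change 2.02, adjusted p = 1.5e-05), the receptor Tnfrsf11a from 0.396 ± 0.0621 to 1.36 ± 0.163 (log2 fold change 1.56, adjusted p = 1.8e-05) and the AMPA receptor auxiliary subunit Gsg1l from 8.68 ± 1.75 to 32.02 ± 6.87 (log2 fold change 1.87, adjusted p = 4.4e-05). Lipoprotein lipase, Lpl, fell from 33.9 ± 10.8 to 11.9 ± 2.98 (log2 fold change -1.48, adjusted p = 0.00173). The region score also separated the ages, and with it as covariate 0 genes were called, these included. Its part in these changes cannot be told apart from age and was not tested further.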
